A study of Mus musculus with 11 samples.

Results

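The 9 genes examined encode transcription factors of the primitive streak and early mesoderm: T, Eomes, Mixl1, Gsc, Mesp1, Mesp2, Tbx6, Msgn1 and Hand2. They were chosen by name, and all 9 were found among the 23288 gene symbols of the expression table. The cells were mouse embryonic stem cells (ESCs) of the wild-type line E14Tg2A, kept without feeders in medium with serum and leukemia inhibitory factor (LIF). RNA-seq was available from ESCs infected with a lentivirus carrying a control shRNA (shCtl) or an shRNA against Cbx6 (shCbx6), with 2 libraries per group, after antibiotic selection. Which of the Cbx6 shRNAs each library received, and whether the libraries came from separate infections, is not stated in the labels, so the spread between them may be technical. ChIP-seq, which sequences the DNA fragments bound by a chromatin protein, was available as 4 lists of peaks, the regions where such fragments pile up. Of the lists, 2 were replicate anti-HA experiments in a single engineered line whose endogenous CBX6 carries a triple HA tag, 1 was for CBX7 and 1 for RING1B. The control ChIP-seq samples (anti-HA in cells without the tag, and IgG) were not analysed here.

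The primitive streak is the site in the gastrulating embryo where cells of the epiblast leave the epithelium and become mesoderm and definitive endoderm, under the signals Nodal, BMP and WNT. T (Brachyury), Eomes and Tbx6 are T-box factors, Mixl1 and Gsc are homeodomain factors, and Mesp1, Mesp2, Msgn1 and Hand2 are basic helix-loop-helix factors. In ESCs such genes are known to be held at low levels by Polycomb complexes: RING1B is the ubiquitin ligase of PRC1, and CBX6 and CBX7 are chromobox subunits that PRC1 can carry. Polycomb complexes in mammals are known to gather at stretches of DNA rich in the dinucleotide CpG.

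Peaks of at least 1 list were present at 8 of the 9 genes, against 59.9% of all genes, and the 9 genes formed a series from peaks in all 4 lists to none. T, Eomes, Gsc, Hand2 and Mixl1 had peaks of both CBX6 replicates, CBX7 and RING1B. Mesp1 lacked a peak of CBX6 replicate 2, Mesp2 had peaks of CBX6 replicate 1 and RING1B, Tbx6 had a peak of CBX6 replicate 1 alone, and Msgn1 had none. A gene was counted where at least 1 bp of a peak lay between 2.5 kb upstream of its transcription start and its transcription end, which is the target rule of the study, here on the GENCODE annotation of mm9. Peaks of CBX6 replicate 1 were found at 8 of the 9 genes, against 56.9% of all 21921 genes with coordinates. For CBX6 replicate 2 the number was 5 of 9, against 16.6% of all genes. CBX7 had peaks at 6 of 9, against 17.9%, and RING1B at 7 of 9, against 16.1%. Peaks in all 4 lists were found at 5 of 9 genes, against 11.5% of all genes. Each list is 1 sample, and no test was made on these counts.

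In all 26 combinations of gene and list with a peak, a peak covered the annotated transcription start. The peaks differed widely in length, as the map of peaks around the starts shows. The longest lay at Hand2, a regulator of heart and limb development. There the CBX6 replicate 2 peak measured 16337 bp, the CBX7 peak 17643 bp and the RING1B peak 17927 bp, longer than 99.8%, 99.7% and 99.8% of the peaks of their lists. These 3 peaks ran past the end of the gene (chromosome 8, 59799780 to 59803314, plus strand) into the noncoding RNA gene 5033428I22Rik. The CBX6 replicate 1 peak at Hand2 was shorter, at 4470 bp, and did not reach that gene.

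At Eomes (chromosome 9, 118387330 to 118395250, plus strand), which acts in mesoderm, definitive endoderm and trophoblast, the peaks over the start measured 5546 bp in CBX6 replicate 1, 8106 bp in CBX6 replicate 2, 6730 bp in CBX7 and 5685 bp in RING1B. A further peak near or beyond the end of the gene was found in CBX6 replicate 2, CBX7 and RING1B, centred downstream of the gene in each, and CBX7 had a short peak of 875 bp upstream. The score of a peak is the authors' MACS score, which rises with the significance of the peak and is not on one scale between lists. The CBX6 replicate 2 peak over the Eomes start scored 3134, higher than 99.8% of the peaks of that list. A score of 3100 recurred in that list (134 peaks, with 11 above it), in the CBX7 list (403 peaks, with 27 above it) and in the RING1B list (507 peaks, with 24 above it), and the CBX7 and RING1B peaks over the Eomes start had this score. Peaks that share it cannot be ranked against each other.

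Gsc (chromosome 12, 105709419 to 105711537, minus strand), a gene of the organizer at the anterior streak, lay wholly inside the peaks. The CBX7 peak there measured 7653 bp and the RING1B peak 7382 bp, both with a score of 3100. In each CBX6 list the same stretch was split into 2 peaks that together covered 5333 bp in replicate 1 and 6188 bp in replicate 2. All of these peaks also fall in the target window of the gene model Gm10000 on the opposite strand. At T (chromosome 17, 8627288 to 8635361, plus strand), the factor that gives the streak and the notochord their best known marker, the peaks were centred upstream of the gene and covered 15.5% to 26.8% of its body. They measured 3627 bp and 3923 bp in CBX6 replicates 1 and 2, 6825 bp in CBX7 and 5323 bp in RING1B. The whole CBX6 replicate 1 peak at T lay inside the peaks of the other lists, with 3627 bp common to all 4.

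The remaining genes had narrower peaks. Mixl1 (chromosome 1, 182623174 to 182627165, minus strand), a target of Nodal signalling, had peaks of 1813 to 2295 bp with 1813 bp common to all 4 lists. The peaks of CBX7 and RING1B at Mixl1 were wider than 56.3% and 49.3% of their lists, so they were of middling size. Mesp1 (chromosome 7, 86937127 to 86938674, minus strand), which marks the first cardiac mesoderm, had peaks of 1630 bp in CBX6 replicate 1, 2390 bp in CBX7 and 2266 bp in RING1B, with scores of 91.6, 224.7 and 234.7. Its CBX6 replicate 1 peak was the only one over a start of the 9 genes with a score under 100. Mesp2 (chromosome 7, 86955613 to 86958317, plus strand), a somite segmentation factor, lies next to Mesp1. Its 2 peaks nearly coincided, from 86955069 to 86956699 in CBX6 replicate 1 and from 86955073 to 86956694 in RING1B. Mesp1 and Mesp2 shared no peak.

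Tbx6 (chromosome 7, 133924997 to 133929074, plus strand), a factor of presomitic mesoderm, had 1 peak of 1830 bp in CBX6 replicate 1 with a score of 194, from 133923513 to 133925342. That peak also lies in the target window of Ypel3, the neighbouring gene, which was read at 18.4 and 28.7 FPKM in the shCtl libraries against 19.4 and 23.5 in the shCbx6 libraries. FPKM count sequenced fragments relative to transcript length and to library depth. Msgn1 (chromosome 12, 11215188 to 11215754, minus strand), which acts beside Tbx6 in presomitic mesoderm, had no peak of any list within its window.

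The DNA around the starts differed along the same series. Promoter sequences are shown for Gsc and T, both with peaks in all 4 lists, for Tbx6 with 1 and for Msgn1 with none. They are RefSeq promoters from GRCm38.p6, each of which matched a single place in mm9 base for base, and run 5′ to 3′ on the strand of the gene from 250 bases before the RefSeq start to 50 bases from it. Capitals mark CpG dinucleotides.
Gsc, chr12:105711397-105711696, minus strand: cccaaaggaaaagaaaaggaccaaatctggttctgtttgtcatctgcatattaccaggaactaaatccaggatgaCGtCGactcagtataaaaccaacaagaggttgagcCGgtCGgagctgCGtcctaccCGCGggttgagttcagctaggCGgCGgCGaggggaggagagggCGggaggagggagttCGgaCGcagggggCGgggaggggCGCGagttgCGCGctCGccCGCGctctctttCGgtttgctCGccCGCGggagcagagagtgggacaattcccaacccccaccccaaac
T, chr17:8627038-8627337, plus strand: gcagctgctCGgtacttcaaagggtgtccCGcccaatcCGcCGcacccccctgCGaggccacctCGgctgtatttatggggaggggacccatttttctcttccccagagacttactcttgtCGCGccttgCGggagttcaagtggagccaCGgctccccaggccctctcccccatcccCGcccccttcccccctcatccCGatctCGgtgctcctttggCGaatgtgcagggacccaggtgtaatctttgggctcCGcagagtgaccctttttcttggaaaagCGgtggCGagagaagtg
Tbx6, chr7:133924747-133925046, plus strand: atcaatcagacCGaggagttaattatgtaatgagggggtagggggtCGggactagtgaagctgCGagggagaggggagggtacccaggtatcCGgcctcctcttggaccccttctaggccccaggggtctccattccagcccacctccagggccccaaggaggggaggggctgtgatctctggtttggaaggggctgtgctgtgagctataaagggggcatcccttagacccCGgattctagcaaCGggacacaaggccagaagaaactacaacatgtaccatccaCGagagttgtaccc
Msgn1, chr12:11215705-11216004, minus strand: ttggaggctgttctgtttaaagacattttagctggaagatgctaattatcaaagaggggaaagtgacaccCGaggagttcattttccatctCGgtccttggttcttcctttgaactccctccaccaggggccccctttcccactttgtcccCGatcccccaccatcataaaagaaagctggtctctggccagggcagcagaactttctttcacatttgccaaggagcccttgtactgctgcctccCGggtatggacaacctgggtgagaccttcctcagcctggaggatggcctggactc

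The Gsc promoter held 25 CpG, the T promoter 17, the Tbx6 promoter 7 and the Msgn1 promoter 4, where the median of 32851 RefSeq promoters was 7. Hand2 held 17, Eomes and Mesp2 10 each and Mesp1 4. Mixl1 had no entry. Over a wider stretch, 1 kb on either side of the annotated start in mm9, the order followed the peaks more closely. CpG numbered 148 at Gsc, 139 at Hand2, 127 at Eomes, 125 at T and 103 at Mixl1, then 94 at Mesp1, 78 at Mesp2, 47 at Tbx6 and 39 at Msgn1. The 5 genes with peaks in all 4 lists thus had the highest CpG counts of the 9. Over all 21921 genes the median was 63, and it was 105 for genes with peaks in all 4 lists and 22 for genes with none. Genes with peaks in 1 list had a median of 84, and Tbx6 lay below the lower quartile of that class.

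**Figure D1:**
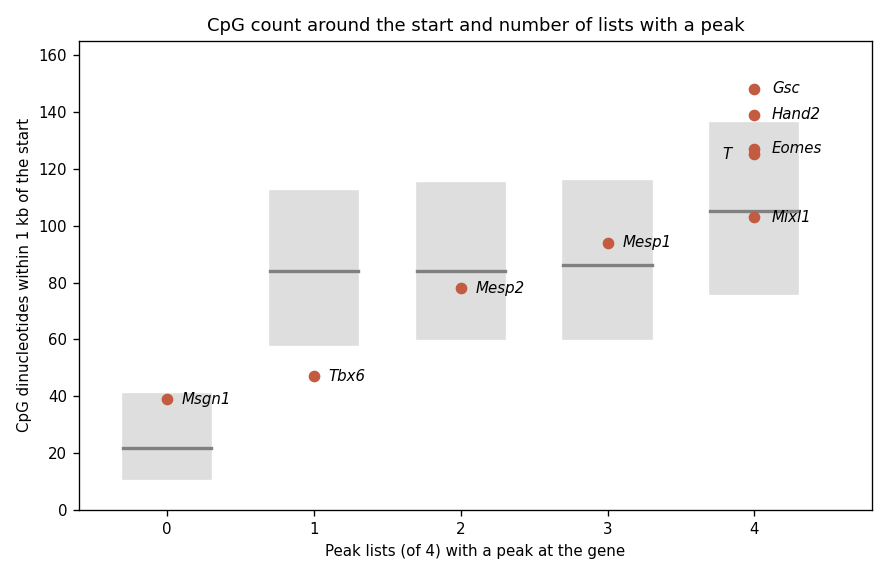
Number of CpG dinucleotides within 1 kb of the annotated start (vertical axis) against the number of peak lists with a peak at the gene (horizontal axis). Points are the 9 genes, grey boxes span the lower to the upper quartile of all genes with that number of lists, and grey lines are their medians, from 22 with no list to 105 with all 4. The 9 genes run from Msgn1 with 39 CpG to Gsc with 148.

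The promoters were also searched on both strands for AGGTGT, part of the site of T-box factors, and for CTTTGAA or CTTTGAT, 2 forms of the site of the WNT effectors TCF and LEF. The T-box motif was found in 13.7% of all RefSeq promoters and the TCF and LEF site in 8.65%. Of the 8 genes with a sequence, T held 1 match of each kind, Mesp1 2 of each, Mesp2 1 T-box motif and Msgn1 2 TCF and LEF sites. Eomes, Gsc, Tbx6 and Hand2 held neither in this window.

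The knockdown was checked first. Cbx6 was read at 17.4 and 14.9 FPKM in the shCtl libraries against 9.53 and 5.40 in the shCbx6 libraries, so both shCbx6 libraries lay below both shCtl libraries. The libraries held about 29.9 to 35.2 M mapped fragments (M, 1e6), as inferred from low FPKM values, which are whole multiples of what 1 fragment is worth. For 7 of the 9 genes the same steps gave the number of fragments behind each value. In bulk RNA, fewer cells that express a gene and less RNA per cell cannot be told apart.

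All but Eomes were under 1 FPKM on average in both groups, the level from which the study counts a gene as expressed. By the mean over the 4 libraries the order was Eomes at 1.77 FPKM, Mesp2 at 0.605, Tbx6 at 0.394, T at 0.337, Mixl1 at 0.236, Gsc at 0.0624, Mesp1 at 0.0416 and Msgn1 at 0.0185, with Hand2 listed at 0. The place of T in this order held in neither group. Its mean lay below those of Mixl1 and Gsc in shCtl (0.0654 against 0.216 and 0.109 FPKM) and above that of Tbx6 in shCbx6 (0.609 against 0.380 FPKM). Gsc in shCbx6 lay below Mesp1 and Msgn1 (0.0163 against 0.0488 and 0.0369 FPKM). Eomes lay above all others in every library, and every library of Mixl1 lay above every library of Gsc. The other neighbours in this order overlapped between libraries, as did Mesp2 and Tbx6, whose shCtl means were 0.450 ± 0.143 and 0.408 ± 0.102 FPKM (SD, n = 2). The 9 genes are compared between groups without a test, since most values rest on few fragments.

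T differed most between the groups. It was read at 0.0984 and 0.0324 FPKM in the shCtl libraries (replicates 1 and 2) against 0.446 and 0.771 in the shCbx6 libraries. Both shCbx6 libraries lay above both shCtl libraries, and in each of the 4 T remained under 1 FPKM. The values stand for 6 and 2 fragments in shCtl and for 26 and 53 fragments in shCbx6. The group means were 0.0654 ± 0.0467 and 0.609 ± 0.230 FPKM (SD, n = 2 each). Fragments per unit of depth were 9.54 times as many in shCbx6, with an exact 95% interval of 4.61 to 22.9 that covers counting error only. On the scale of log2(FPKM + 1) the difference was 0.59, and 0.44 to 0.73 when each library was left out in turn. With a pseudocount of 0.1 it was 2.09, the pseudocount of 1 being larger than every value of T.

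Mesp2 was read at 0.349 and 0.551 FPKM in the shCtl libraries against 0.547 and 0.975 in the shCbx6 libraries. The lower shCbx6 library fell just under the higher shCtl library, so the groups overlapped. These values stand for 20 and 32 fragments in shCtl and 30 and 63 in shCbx6, and the ratio of fragments per depth was 1.73 (exact 95% interval for counting error 1.22 to 2.48). Its neighbour Mesp1 was read at 0.0346 and 0.0342 FPKM in the shCtl libraries against 0.0362 and 0.0614 in the shCbx6 libraries. That is 1 fragment in each of 3 libraries and 2 in shCbx6 replicate 2, so the direction rests on 1 fragment (ratio 1.45, interval 0.166 to 17.4).

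Eomes, the highest of the 9, was read at 2.12 and 1.42 FPKM in the shCtl libraries against 1.63 and 1.92 in the shCbx6 libraries. Both shCbx6 values lay between the shCtl values, and the group means were 1.77 ± 0.501 and 1.77 ± 0.204 FPKM (SD, n = 2 each). The genes whose levels over the 4 libraries lay closest to Eomes, by Euclidean distance of log2(FPKM + 1), were Gm10390 at 0.113, Emc9 at 0.125 and Tbkbp1 at 0.157. Tbx6 was read at 0.480 and 0.336 FPKM in the shCtl libraries against 0.335 and 0.426 in the shCbx6 libraries. Its groups overlapped as well, with a ratio of fragments per depth of 0.943 (interval 0.594 to 1.49).

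Mixl1 was read at 0.217 and 0.215 FPKM in the shCtl libraries against 0.242 and 0.270 in the shCbx6 libraries. The groups did not overlap, but they stand for 15 and 15 fragments against 16 and 21 (ratio 1.19, interval 0.716 to 2.00). The direction of Mixl1 thus rests on few fragments. With quantile normalization of the libraries its log2 difference moved from 0.05 to −0.0063. Gsc went the other way, from 0.156 and 0.0615 FPKM in shCtl to 0.0326 and 0 FPKM in shCbx6. The 4 values rest on 5, 2, 1 and 0 fragments (ratio 0.138, interval 0.00306 to 1.07), so the direction of Gsc rests on few fragments as well.

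Msgn1 was listed at 0 in 3 libraries and at 0.0739 FPKM in shCbx6 replicate 2, which for its transcript length stands for 1 fragment. Hand2 was listed at 0 in all 4 libraries, where a floor of 3 fragments, a one-sided 95% limit for a count of 0 and unlike the intervals of the ratios, was taken as the limit in each. Hand2 thus combined the longest CBX7 and RING1B peaks of the 9 genes with no detected RNA in either group, and Msgn1 combined the absence of peaks with 1 fragment in all. T and Eomes both had peaks of every list, with mean levels in shCtl of 0.0654 and 1.77 FPKM.

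**Figure D2:**
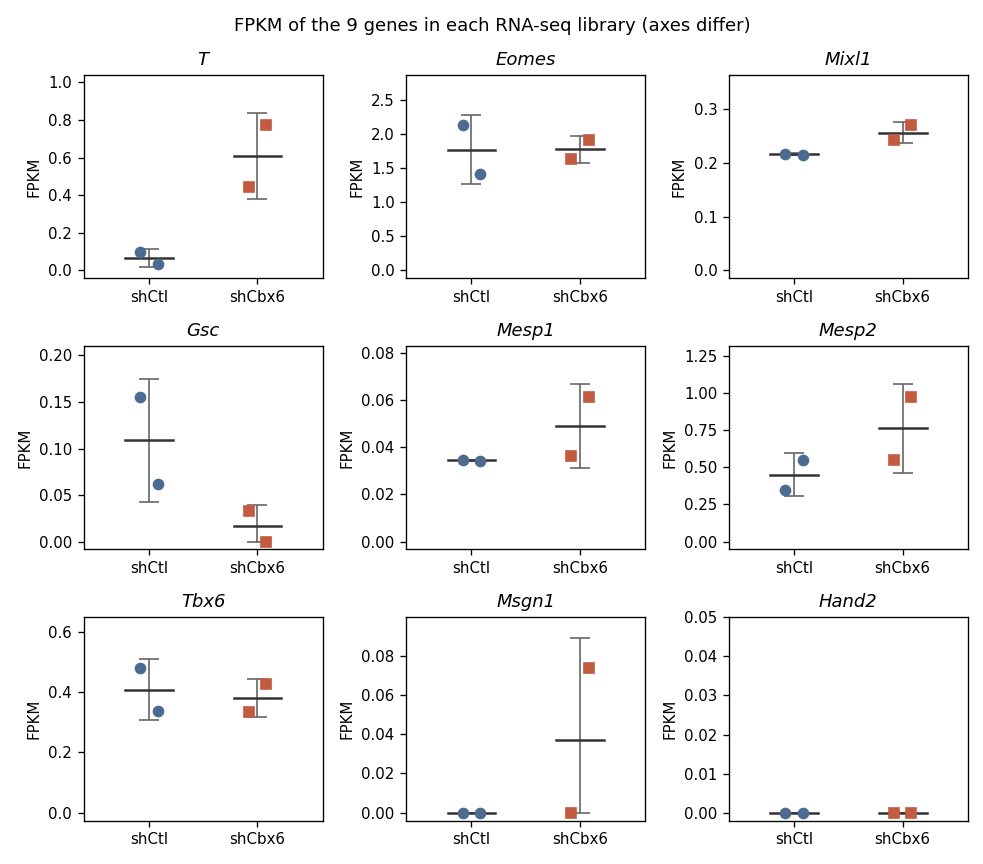
FPKM of each of the 9 genes in the 2 shCtl libraries (blue circles) and the 2 shCbx6 libraries (red squares), with the group mean (line) and SD (bars, drawn down to 0 at most). Vertical axes differ between panels. T lies at or under 0.0984 FPKM in shCtl and at or above 0.446 FPKM in shCbx6, Eomes lies between 1.42 and 2.12 FPKM in both groups, and Hand2 is at 0 throughout.

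Of the 8 genes with any value above 0, 3 had both shCbx6 libraries above both shCtl libraries (T, Mixl1 and Mesp1), against 20.6% of 18597 such genes. For 1 (Gsc) both lay below, against 20.2%. In the 2 shCtl and then the 2 shCbx6 libraries, Mesp1 rested on 1, 1, 1 and 2 fragments and Mixl1 on 15, 15, 16 and 21. At Mesp1, shCbx6 replicate 1 thus lay above shCtl only through its lower depth. The 1.5-fold threshold of the study was applied here to the ratio of mean FPKM among genes at 1 FPKM or more in either group. By it 0 of the 9 genes were higher, against a background of 7.63%, and 0 were lower, against 6.56%. Eomes was the only one to pass the level. Without that level, and with 0.1 FPKM added to each mean, T and Mesp2 were past 1.5-fold higher and Gsc past 1.5-fold lower, where 9.87% and 6.26% of all genes with any value were. The median log2 difference of the 8 genes was 0.03, and 0.0054 over all genes with a value.

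The rest of the pathway was read from 3 lists of 42 other genes: the signals that induce the streak, further genes of the streak and mesoderm, and genes of the definitive endoderm. Of these, 19 reached a mean of 1 FPKM in either group and were tested with limma on log2(FPKM + 1), adjusted over all 11592 genes tested. At an adjusted p under 0.05, 0 of the 19 were higher and 0 lower, where limma called 0.0949% of all genes (1352 had an unadjusted p under 0.05), and 8 of the 19 had an unadjusted p under 0.05. By mean FPKM, 5 of the 19 were 1.5-fold higher and 5 were 1.5-fold lower, where 7.63% and 6.56% of all genes tested were. The median log2 fold change of the 19 was −0.07. Of the higher genes, Snai1, Dll1, Hand1 and Lfng passed the 1 FPKM level only through shCbx6. Of the lower genes, Cdx1 passed it only through shCtl. Dll1, Lfng and Cdx1 are also among the 8 with an unadjusted p under 0.05. For these genes the change itself decided that they were tested, so the counts are not independent of the filter.

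Among the tested inducing signals, Lef1, a transcription factor of the WNT pathway, had the largest difference of log2(FPKM + 1). It was read at 2.83 and 2.34 FPKM in the shCtl libraries against 10.2 and 11.2 in the shCbx6 libraries. Its log2 difference of 1.71 had an SE of 0.151 (adjusted p = 0.0588 by limma), above the threshold. With a pseudocount of 0.1 the limma adjusted p was 0.0388, and over all alternatives it ranged from 0.0160 to 0.321. Bmp4, the BMP ligand, was read at 22.4 and 20.7 FPKM in the shCtl libraries against 13.4 and 6.59 in the shCbx6 libraries (log2 difference −1.11 with SE 0.312, adjusted p = 0.291 by limma). Its log2 difference was −0.646 without shCbx6 replicate 2 and −1.57 without shCbx6 replicate 1. Tdgf1, the Nodal co-receptor, was read at 517.2 and 534.2 FPKM in the shCtl libraries against 372.0 and 277.2 in the shCbx6 libraries, with a limma adjusted p of 0.30. Ctnnb1, which encodes β-catenin, was at 250.1 and 275.8 FPKM in the shCtl libraries against 242.5 and 275.7 in the shCbx6 libraries. Lefty1, a Nodal antagonist, ranged from 19.7 to 121.1 FPKM in shCbx6 alone, around the shCtl values of 76.7 and 47.6 FPKM.

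Among the further streak and mesoderm genes, Tbx3 and Cdx1 had the lowest log2 fold changes. Tbx3, a T-box gene that is also part of the ESC network, was read at 34.3 and 34.0 FPKM in the shCtl libraries against 13.1 and 6.90 in the shCbx6 libraries (log2 difference −1.73 with SE 0.287, adjusted p = 0.131 by limma). Cdx1, a homeobox gene of the posterior embryo, was at 2.58 and 2.80 FPKM in the shCtl libraries against 0.797 and 0.659 in the shCbx6 libraries (limma adjusted p = 0.123). With the replicate number as a block in the fit, the limma adjusted p was 0.0326 for Tbx3 and 0.0441 for Cdx1. Lfng, a modulator of Notch receptors in somite segmentation, was at 0.261 and 0.387 FPKM in the shCtl libraries against 0.972 and 2.06 in the shCbx6 libraries, with an adjusted p of 0.319 by limma. Tcf15, a factor of somites, was at 34.1 and 39.6 FPKM in the shCtl libraries against 32.1 and 31.4 in the shCbx6 libraries. Without shCbx6 replicate 1 the group is 1 library, which the fit assumes to vary as the shCtl libraries do, so the calls it gives carry no shCbx6 replication. That fit called 267 genes higher and 131 lower, against 5 and 6 with all libraries, among them Lef1 (adjusted p = 0.0160 by limma), Hand1 and Lfng higher and Bmp4, Cdx1, Lefty2 and Tbx3 lower.

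**Figure D3:**
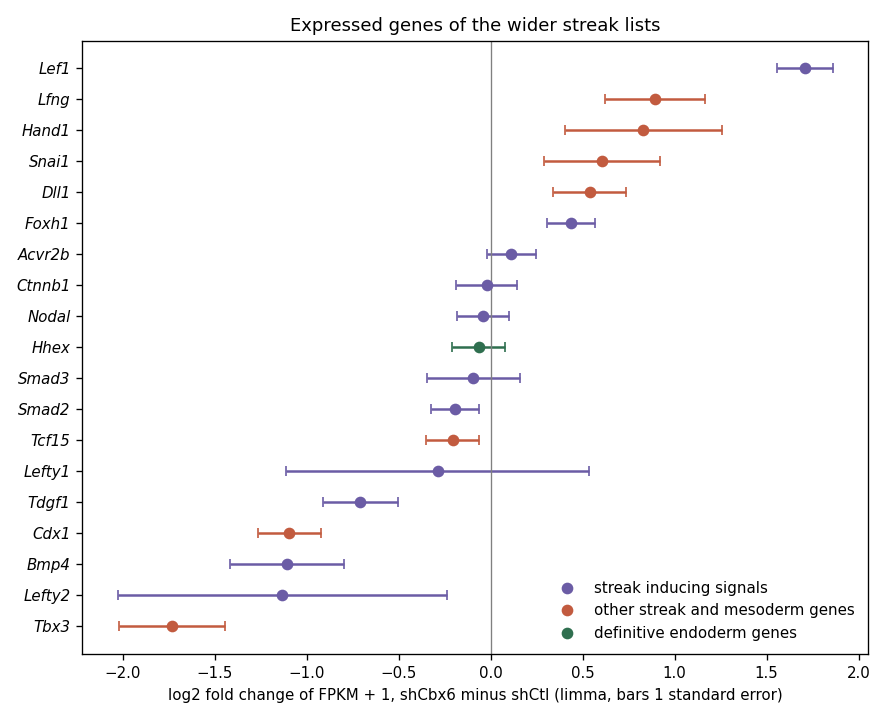
Log2 fold change of FPKM + 1 (horizontal axis, shCbx6 minus shCtl, limma) of the 19 tested genes of the wider streak lists, with bars of 1 standard error. Lef1 is highest at 1.71 and Tbx3 lowest at −1.73, and none of the 19 passes an adjusted p of 0.05.

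Of the 42 genes, tested or not, 15 had both shCbx6 libraries above both shCtl libraries and 14 had both below, where 20.6% and 20.2% of all genes with any value did so. Sp5, Wnt3, Wnt3a and Meox1, of both kinds and under 1 FPKM on average in both groups as T was, were chosen after their values were seen. Sp5, a transcriptional target of WNT signalling, was read at 0.0798 and 0.0945 FPKM in the shCtl libraries against 0.567 and 1.17 in the shCbx6 libraries. Wnt3, the ligand that induces the streak, was at 0.0104 and 0.0307 FPKM in the shCtl libraries against 0.141 and 0.497 in the shCbx6 libraries. Wnt3a, a further WNT ligand of the streak, was lower in both shCbx6 libraries, at 0.190 and 0.199 FPKM in the shCtl libraries against 0.0868 and 0.0736 in the shCbx6 libraries. Meox1, a homeobox gene of somites, was lower in both as well, at 0.392 and 0.461 against 0.158 and 0.201 FPKM. Sp5, Wnt3 and Wnt3a had peaks in all 4 lists and Meox1 in CBX6 replicate 1 alone. Of the 6 genes of the definitive endoderm list, 2 were higher in both shCbx6 libraries and 3 lower in both. Cxcr4 was lower in both, at 0.544 and 0.500 FPKM in the shCtl libraries against 0.353 and 0.150 in the shCbx6 libraries. Hhex (3.33 and 3.24 against 3.00 and 3.18 FPKM) was slightly lower in both, and the groups of Gata4 (0.426 and 0.393 against 0.416 and 0.504 FPKM) overlapped. Sox17 (0.0103 and 0.0204 against 0.0540 and 0.0366 FPKM) and Gata6 (0.111 and 0.150 against 0.158 and 0.188 FPKM) were higher in both. Foxa2, which with Sox17 defines that lineage, was lower in both, at 0.0471 and 0.0155 against 0 and 0.0139 FPKM. Sox17 and Foxa2 both lay near the floor, where Mesp1 at 0.0346 FPKM stands for 1 fragment. Their fragments were not counted, so the direction of each may rest on very few.

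Peaks were counted over the same lists, without a test. Of the 22 further streak and mesoderm genes, CBX6 replicate 2 had peaks at 20, CBX7 at 20 and RING1B at 19, against 16.6%, 17.9% and 16.1% of all genes, and of the 6 endoderm genes all 3 lists had peaks at 6. Of the 14 signals, CBX6 replicate 2 and CBX7 had peaks at 4 each and RING1B at 6. Most signals were well expressed, with Nodal at 30.5 to 34.8 FPKM over the 4 libraries and no peak in these 3 lists. CBX6 replicate 1 had peaks at 21 of the 22, 6 of the 6 and 11 of the 14, against 56.9% of all genes.

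Markers of ESCs and of other cells were read beside these values. Pou5f1 was at 1120 to 1452 FPKM and Sox2 at 133 to 159.9 FPKM over the 4 libraries, as an ESC label requires. The summed FPKM of 8 ESC markers was 7599 to 8650 in shCtl and 5798 to 6895 in shCbx6. Of the 8, 7 were lower in both shCbx6 libraries, against 20.2% of all genes with any value. By mean FPKM, 4 of the 8 were 1.5-fold lower, against 6.56% of all genes tested. Klf4 had the largest fall, from 91.1 and 96.7 FPKM in the shCtl libraries to 36.7 and 28.0 in the shCbx6 libraries. Nanog was at 320.7 and 358.7 against 203.5 and 191.6 FPKM. Dppa5a, the highest of the list, was at 4580 and 5397 against 4544 and 3601 FPKM. Of 5 epiblast markers 4 were higher in both shCbx6 libraries, against 20.6% of all genes with any value, and Sox3 was lower in both (0.925 and 1.54 against 0.696 and 0.720 FPKM). Their sums were 37.5 to 39.4 FPKM in shCtl and 113.4 to 235.4 FPKM in shCbx6. Most of it was Dnmt3b, a DNA methyltransferase at 31.8 FPKM in both shCtl libraries against 90.9 and 191.5 in the shCbx6 libraries. Otx2, with the largest rise of the list, was at 3.42 and 4.65 against 15.3 and 30.4 FPKM. Pou3f1 was at 0.925 and 0.977 against 4.55 and 10.4 FPKM. All of 7 trophectoderm markers, a list that also names Eomes but is given here without it, were higher in both shCbx6 libraries, against the same 20.6%, with sums of 11.4 to 16.5 FPKM in shCtl and 33.1 to 252.9 FPKM in shCbx6. In shCbx6 replicate 2 most of the sum was Krt8 and Krt18, keratins at 118.8 and 122.2 FPKM, while the defining Cdx2, Elf5 and Gata3 reached at most 0.511, 0.0533 and 0.489 FPKM. Tfap2c, a further transcription factor of the list, was at 2.84 and 2.21 FPKM in the shCtl libraries against 7.41 and 9.04 in the shCbx6 libraries (adjusted p = 0.0895 by limma), and Hand1 at 0.0535 and 0.0176 against 0.205 and 1.80 FPKM. Cdx2 and Hand1 of this list are also among the further streak and mesoderm genes. Sums of 6 neuroectoderm markers were 3.79 to 4.37 FPKM in shCtl and 5.52 to 7.92 FPKM in shCbx6. Of these 6, Pax6 (1.47 and 0.569 against 5.51 and 1.82 FPKM) and Nes (0.673 and 0.720 against 1.59 and 3.27 FPKM) were higher in both shCbx6 libraries and Sox1 (2.14 and 2.40 against 0.767 and 0.287 FPKM) was lower in both. Sums of 8 fibroblast markers were 130.3 to 156.3 and 97.6 to 130.0 FPKM. Nearly all of the fibroblast sum was Fn1 (fibronectin), at 154.1 and 128.0 FPKM in the shCtl libraries against 127.9 and 92.2 in the shCbx6 libraries. By gene, 4 of the 8 fibroblast markers were higher in both shCbx6 libraries and 2 lower in both, with Col1a1 at 0.0336 and 0.0398 against 0.0984 and 0.549 FPKM. Of the fibroblast list, Col1a1, Col1a2 and Col3a1 were at most 0.549 FPKM in any library and Twist2 was at 0 in 3. Thy1, whose groups overlapped, was at 1.68 and 1.64 FPKM in the shCtl libraries against 1.16 and 3.82 in the shCbx6 libraries. Twist1 was at 0.381 and 0.627 against 0.798 and 0.808 FPKM. Limma called 0 genes in each of the 5 marker lists. Unadjusted limma p values under 0.05 were found for 5 of 8 tested ESC, 4 of 5 epiblast and 2 of 4 trophectoderm markers. For neuroectoderm the number was 2 of 3 and for fibroblast markers 0 of 2, where 1352 of all 11592 genes tested had such a p. Fgf5, Pou3f1 and Nes, which are among these, passed the 1 FPKM level only through shCbx6, and Sox1 only through shCtl. The part of these shifts in the values of T and Mesp2 was not tested.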

How the data were processed

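RNA-seq and ChIP-seq of mouse ESCs were used as deposited. For RNA-seq the authors mapped paired-end reads to mm9 with TopHat, kept uniquely mapped reads and estimated FPKM per RefSeq transcript with Cufflinks; how transcripts were combined is not stated, 25 entries carry dates for symbols, and of repeated symbols the one with the higher mean was used. For ChIP-seq the authors mapped reads to mm9 with Bowtie and called peaks per sample with MACS, and the deposited lists give a MACS score per peak, with no depth. Reads mapping to several places were dropped in both. The control of each peak call and tool versions are not given in the sources used here. ChIP of RING1B followed, per the labels, another protocol than the kit used for CBX6 and CBX7, so scores were compared within lists only.

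Genes and lists were chosen with earlier results of these data known. Symbols were placed on GENCODE mm9, 21149 by name and 772 by a synonym. Genes were named by a rule: the 9 genes, Cbx6, per further list the 3 highest genes and the largest non-overlapping rise and fall among tested genes, genes near a member that share its peak, and the 3 genes closest in level to Eomes. Outside it, chosen after their values were seen, are Sp5, Wnt3, Wnt3a, Meox1, Nodal, Sox17, Foxa2, Gata6, Sox2, and other markers and lost or gained calls named beside a count. Levels are means ± SD. limma 3.58.1 (R 4.3.3; lmFit, eBayes with trend, Benjamini-Hochberg) was fitted to log2(FPKM + 1) of the genes whose mean reached 1 FPKM in 1 group or both, without a replicate term. On simulated data for shCbx6 against shCtl with 11592 genes it recovered 16% of 2-fold and 58% of 4-fold changes of FPKM + 1, with 3 false calls. The simulated noise was independent between libraries, so the correlation of same-numbered libraries was left out.

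Relative depth was the commonest ratio of low values between libraries. Fragments are multiples within 0.02 of a whole number of the step expected for the transcript length, and total depth was scaled on 96 single-transcript genes of at least 3 kb. Intervals of the ratios are exact, pool the fragments of the 2 libraries of a group and cover counting error only. They do not measure the spread between libraries and are no test of the groups. Python 3.11.15 was used for the rest. The alternatives covered the pseudocount, the filter, scaling, replicates, single libraries, the peak score, the window and the overlap. The anti-HA and IgG control samples were not analysed here.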

Additional observations from a re-analysis of the deposited data

How the results depend on the processing

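The numbers of genes with peaks moved by at most 1 under a score of at least 100, a window of 2.5 kb either side of the start, or at least 50% of the peak inside the window. Mesp1 lost its CBX6 replicate 1 peak with the score limit, and Hand2 lost 3 lists with the overlap limit because its peaks run past the gene. Eomes alone passed 1 FPKM under every alternative. Without the filter and with 0.1 FPKM added to each mean, changed together, 2 of the 9 genes were past 1.5-fold higher and 1 lower, against 9.87% and 6.26% of all genes with any value.

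In limma a pseudocount of 0.1 gave 11 genes higher, 1 of them in the streak lists (Lef1), and no filter on low values gave 1 higher and 1 lower. Leaving out 1 library at a time gave 5 to 267 genes higher and 8 to 131 lower, and 0 to 3 higher and 0 to 4 lower in the streak lists, with the most calls without shCbx6 replicate 1, where the lone shCbx6 library is assumed to vary like the shCtl libraries; each such fit leaves 1 group with a single library. With the replicate number as a block, limma called 183 genes higher and 205 lower, of which Lef1 was higher (adjusted p = 0.0163) and Cdx1 and Tbx3 lower in the streak lists (1 and 2). Same-numbered libraries share only a number in the labels, and their deviations from the group means correlated at 0.266 across 11592 genes. The cause of these changes was not tested.

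The log2 difference of Mixl1 changed sign with quantile normalization, as did those of Eomes and Tbx6 when single libraries were left out (−0.17 to 0.20 and −0.10 to 0.05). With 2 libraries per group few fragments limit all values under 1 FPKM.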
